A study of Homo sapiens with 6 samples.

Results

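The genes described here build, cross-link, pull on and turn over actin filaments, or belong to the RHOA, ROCK and serum response factor (SRF) pathway that reads the state of actin. They are 46 genes chosen by name for these functions, with earlier results of these data known. They were matched to the tables by symbol through the GENCODE annotation, out of 60719 genes in the tables, of which 16763 had enough counts to be tested. All 46 members were tested. By the labels, RNA was sequenced from H1 and H9 human embryonic stem cells, 2 established pluripotent lines, in 3 libraries from simulated microgravity (sµg) and 3 from normal gravity (1g). The sµg cells grew on Matrigel in chamber slides filled completely with StemFlex medium and turned on a fast-rotating 2-D clinostat, a device that spins the culture so that the direction of gravity averages out. The 1g cells were kept in static chamber slides with the same coating and medium. Both were seeded with 10 µM of ROCK inhibitor, a compound that blocks 2 of the members, and the sµg slides went onto the clinostat 24 h after seeding, had their medium replaced 48 h later and were kept for 96 h in all. The study's methods also list induced pluripotent stem cells among its lines, so the line or lines behind each library are not known here. The sources do not tie a library to a line, nor do they state that the libraries are from separate cultures, and p-values therefore measure only how far these samples spread, which may be a technical spread.

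Actin polymerises from single subunits into filaments, and non-muscle myosin slides along those filaments when its light chains are phosphorylated by kinases such as ROCK, which the GTPase RhoA activates. Tropomyosins, calponins and caldesmon lie along filaments and set which motors and severing proteins can reach them, while filamins and α-actinins tie filaments into networks. Free actin subunits hold the coactivators MRTFA and MRTFB in the cytoplasm, and when subunits are used up in filaments these coactivators enter the nucleus and drive genes through SRF, which binds a DNA element called the CArG box. Human pluripotent stem cells grow as tight epithelial colonies bounded by actin cables, and they are known to respond to dissociation with strong actomyosin contraction, which is why ROCK inhibitor is added at seeding.

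The labelled cell type was checked against its markers. POU5F1, SOX2 and NANOG were abundant in every library and not called. Of the 12 pluripotent markers 3 were lower in sµg (DNMT3B, LIN28A and UTF1), 1 was higher (TERF1) and 8 were not called, and together they summed to 6420 to 6480 TPM in 1g (transcripts scaled per length to a constant sum) and to 6140 to 6220 TPM in sµg. Expected counts per library ran from 20876937 to 28506848 in 1g and from 19971097 to 20588215 in sµg, and the members took 1.81% to 1.98% of them. The library of sµg replicate 3 stood somewhat apart by transcript length. It lay below the mean of the other sµg libraries for 14 of the 15 members with an effective length of at least 3000 bases (median log2 difference -0.14), and for 15 of the 31 shorter members. Values without it are given where they alter a call.

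Taken across the 46 members, 13 were higher in sµg, 17 were lower and 16 were not called by edgeR's quasi-likelihood test at an adjusted p under 0.05. The background was high: 33.7% of all genes tested were called, 15.5% as higher and 18.2% as lower. The corresponding shares of the members were 65.2%, 28.3% and 37%. The members are abundant genes, for which calls are easier to reach, and among the 2058 genes with a mean of at least 100 CPM (expected counts scaled by library size) 46.5% were called, against 55.2% of the 29 members in that range. These level ranges were chosen after the values were seen. The 3 libraries of a condition did not overlap the 3 of the other for 35 of the 46 members, against 45.5% of all genes tested. Most differences were small. The median size of the log2 fold change was 0.26 among called members and 0.31 among all called genes, and the median log2 fold change over all members was -0.08, against 0.01 over all genes tested.

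**Figure D1:**
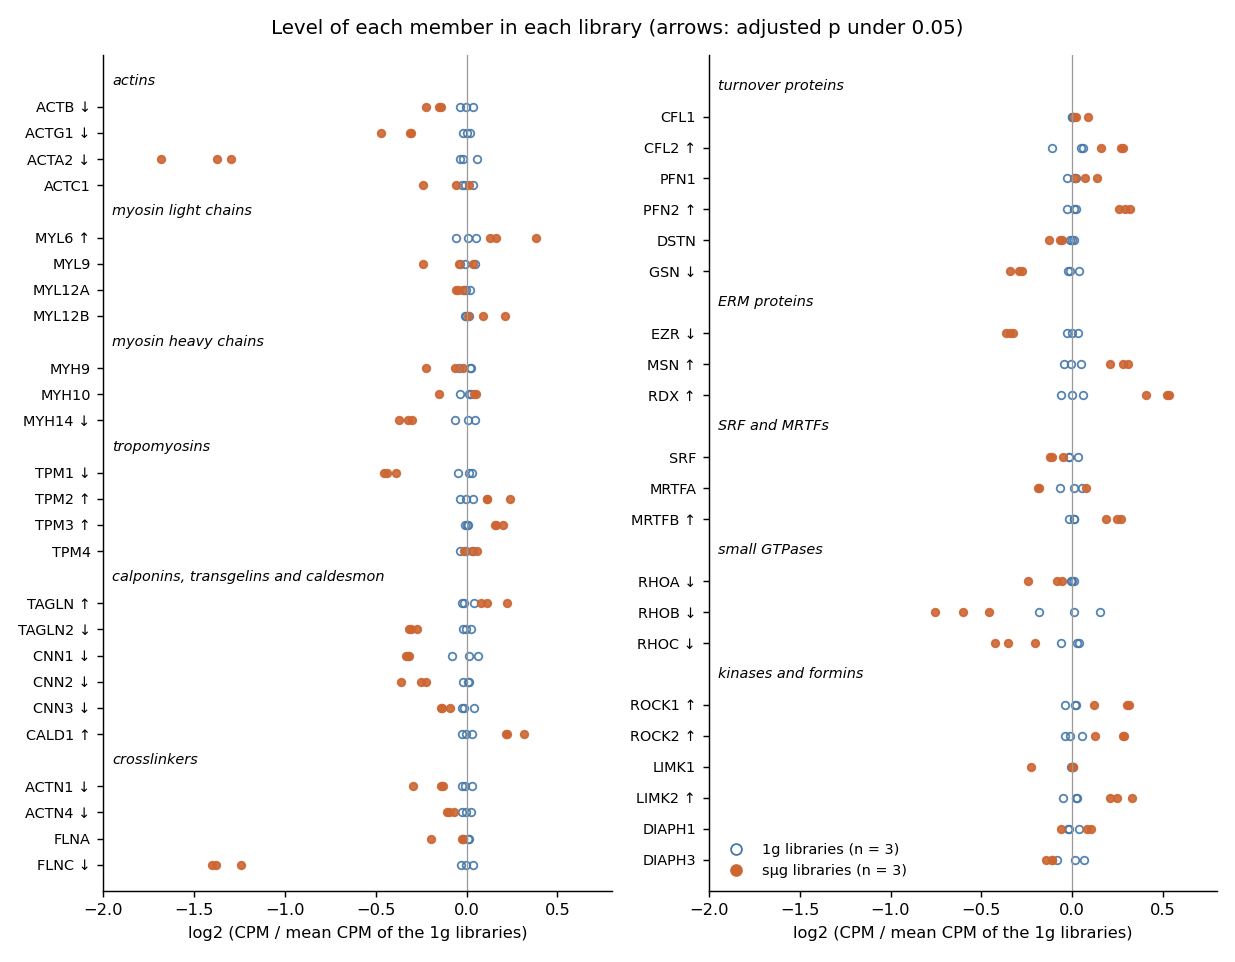
Each row is 1 of the 46 members and each point 1 library, placed by the log2 ratio of its CPM to the mean CPM of the 1g libraries, with open circles for 1g and filled circles for sµg. Arrows mark the 13 members called higher and the 17 called lower by edgeR, and FLNC and ACTA2 lie far to the left of all others.

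ACTB and ACTG1 encode the cytoplasmic β- and γ-actins, the subunits of nearly all filaments in non-muscle cells, and they were the most abundant members. By TPM, which corrects for length, ACTB stood at 3812 ± 67.7 TPM (SD, n = 3) in 1g and 3504 ± 239 in sµg, and ACTG1 at 3177 ± 45.2 and 2532 ± 210. ACTG1 (ENSG00000184009.12, chr17:81509413-81523847, minus strand, GRCh38) had 4023, 3923 and 3990 CPM in the 1g libraries and 3219, 3209 and 2868 CPM in the sµg libraries. Every sµg library was below every 1g library. Its log2 fold change was -0.36 (SE 0.0437, edgeR adjusted p = 4.02e-06). ACTB (ENSG00000075624.17, chr7:5526409-5563902, minus strand) had 4197, 3988 and 4086 CPM in 1g and 3684, 3714 and 3501 CPM in sµg. These groups did not overlap either, with a smaller log2 fold change of -0.17 (SE 0.0386, edgeR adjusted p = 0.00212), and the call was lost with limma on log2(TPM + 1), at an adjusted p of 0.119. Because γ-actin RNA fell further than β-actin RNA, the make-up of the pool differed: ACTG1 held 45.1%, 45.3% and 45.2% of the TPM of the 4 actin genes in 1g and 42.1%, 41.8% and 41.3% in sµg. These shares did not overlap, and the exact permutation test gave p = 0.1, the smallest that 3 against 3 libraries allow.

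The ACTG1 promoter is shown because it carries a CArG box and belongs to a called member with a log2 change of 0.3 or more in either direction, the only member to meet these conditions. The 250 bases before its RefSeq start site (chr17:81512800-81513049, minus strand, GRCh38.p14) are given with the CArG box in capitals.
ACTG1 promoter: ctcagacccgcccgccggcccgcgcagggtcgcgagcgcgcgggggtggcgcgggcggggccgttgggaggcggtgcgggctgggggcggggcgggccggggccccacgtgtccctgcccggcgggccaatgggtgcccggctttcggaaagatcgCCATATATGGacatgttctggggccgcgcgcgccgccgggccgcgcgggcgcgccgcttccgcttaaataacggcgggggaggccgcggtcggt

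The other actins of the list are muscle forms present at low levels here. ACTA2, the smooth muscle α-actin, had 3.28, 3.5 and 3.31 CPM in 1g and 1.05, 1.37 and 1.3 CPM in sµg, so that the groups lay far apart. Its log2 fold change of -1.42 (SE 0.188, edgeR adjusted p = 1.17e-05) was the largest among the members. The gene overlaps FAS and STAMBPL1 on the opposite strand, and strand is not used by the default settings of the counting program, so reads of these genes may have been shared. FAS was lower in sµg (log2 fold change -0.55) and STAMBPL1 higher (0.56). ACTC1, the cardiac α-actin, had a log2 fold change of -0.09 and was not called. In bulk RNA, fewer cells of a type and less RNA per cell cannot be told apart. Of 10 smooth muscle markers 3 were lower (30%) and 2 higher (20%), against 18.2% and 15.5% of all genes tested. Their summed level was 59.4 to 64 TPM in 1g and 48.4 to 53.8 TPM in sµg. Of 17 cardiac and skeletal muscle markers, 8 averaged under 10 counts per library over all libraries, among them MYH6, MYH7, MYOD1 and MYOG. Of the 9 tested 5 were lower (55.6%), with sums of 117 to 127 TPM in 1g and 77.7 to 86.6 TPM in sµg. Their part in the ACTA2 result was not tested.

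The motor itself is non-muscle myosin II, made of heavy chains, regulatory light chains and an essential light chain. The heavy chains MYH9 and MYH10, of non-muscle myosin IIA and IIB, were not called. MYH10, the most abundant by TPM, had 549, 572 and 567 CPM in 1g and 584, 578 and 506 CPM in sµg. The groups overlapped, with sµg replicate 3 lowest of all and the other sµg libraries highest, and the log2 fold change of -0.02 (SE 0.0476) became 0.05 without sµg replicate 3. MYH9 had a log2 fold change of -0.10 (edgeR adjusted p = 0.111). MYH14, the IIC heavy chain, was the scarce one, at 38, 39 and 36.2 CPM in 1g and 30.1, 30.7 and 29.2 CPM in sµg, and its groups were clearly apart (log2 fold change -0.33, SE 0.0532, edgeR adjusted p = 9.3e-05). That call was lost when the effective length of each library entered as an offset, with an adjusted p of 0.0555, and with limma on log2(TPM + 1), with 0.204.

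MYL6, the essential light chain, was the most abundant myosin gene by TPM and held 70.8% of the TPM of the 4 light chain genes in 1g and 73.9% in sµg. It had 547, 573 and 590 CPM in 1g and 622, 637 and 742 CPM in sµg, a rise with no overlap (log2 fold change 0.23, SE 0.0612, edgeR adjusted p = 0.0148). Without 1g replicate 1 the adjusted p was 0.0512. MYL6 overlaps MYL6B on the same strand, whose log2 fold change was 0.00, and SMARCC2 on the opposite strand, whose log2 fold change was 0.12. The regulatory light chains MYL9, MYL12A and MYL12B, which ROCK and myosin light chain kinase phosphorylate, lay between -0.08 and 0.11 in log2 fold change and none was called. MYL12B was called without sµg replicate 1, at an adjusted p of 0.0159.

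Tropomyosins are coiled-coil dimers that polymerise end to end along both sides of the filament, and their 4 genes moved in different directions. TPM1 (ENSG00000140416.23, chr15:63042620-63071915, plus strand) had 569, 602 and 595 CPM in 1g and 430, 434 and 450 CPM in sµg. All sµg libraries were well below all 1g libraries, with a log2 fold change of -0.43 (SE 0.0369, edgeR adjusted p = 6.01e-08). TPM2 and TPM3 were higher, with log2 fold changes of 0.16 and 0.17 (adjusted p = 0.00666 and 0.000738), and TPM4 was not called at 0.02. The sum of the 4 genes stayed within 1539 to 1599 TPM in 1g and 1539 to 1575 TPM in sµg, while its composition changed. TPM1 made up 35.8%, 36.6% and 36.5% of that sum in the 1g libraries and 28.1%, 28% and 28.2% in the sµg libraries. TPM3 rose from 29.7% ± 0.639 (SD, n = 3) to 34.9% ± 0.768 and TPM2 from 12.9% ± 0.0312 to 15.1% ± 0.519. Both shifts left no overlap between conditions (exact permutation p = 0.1 each). By the TPM of all their transcripts, TPM1 was the leading tropomyosin gene in 1g and TPM3 in sµg. The lead of TPM3 in sµg (549, 559 and 524 TPM, against 443, 439 and 433 for TPM1) counts a transcript annotated for breakdown. That transcript, TPM3-219, had 139, 122 and 117 TPM in the sµg libraries.

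**Figure D2:**
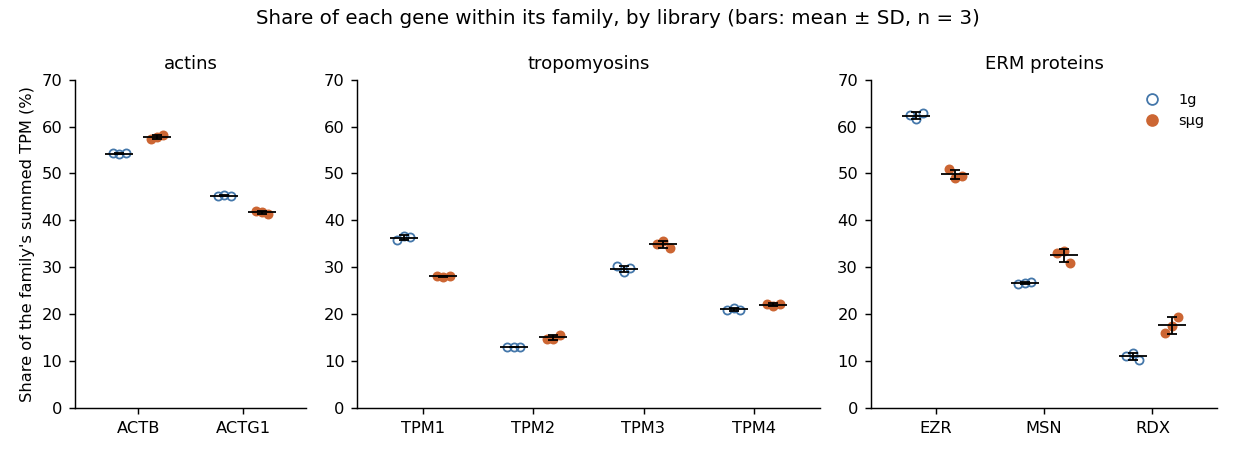
The share of each gene in the summed TPM of its family is plotted in percent for each library, with open circles for 1g, filled circles for sµg and bars for the mean ± SD (n = 3). Every gene shown separates the conditions, with TPM1 falling from 36.3% to 28.1% and EZR from 62.3% to 49.9% on average.

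Each tropomyosin gene makes many transcripts, 110 for the 4 genes in these tables, of which 62 were tested. TPM1-206, which held 57.5% of the TPM of TPM1 in 1g and 57.8% in sµg, was lower with a log2 fold change of -0.42 (SE 0.0371, edgeR adjusted p = 0.00916), though 5 of 11 alternatives lost the call, the highest adjusted p being 0.122. The other call was TPM1-234, a retained-intron transcript with 0.734% of its gene's TPM in 1g and 0.424% in sµg, also lower, and its call was lost in 8 of 11 alternatives, the highest adjusted p being 0.174. With edgeR 0 tropomyosin transcripts were called higher, where 4 were higher at an unadjusted p under 0.05, DESeq2 called 4 and limma 1, and over all 53807 transcripts tested 1.76% were called. Of the transcripts with at least 5% of their gene, TPM1-201, TPM1-207 and TPM1-220 had log2 fold changes of -0.32, -0.17 and -0.65, TPM2-201 and TPM2-202 of 0.30 and -0.21, TPM3-205, TPM3-206 and TPM3-219 of 0.07, 0.18 and 0.29, and TPM4-201, TPM4-218, TPM4-225 and TPM4-232 of 0.01, 0.13, -0.55 and -0.14, none with an adjusted p under 0.05. TPM3-219, TPM4-201 and TPM4-225 are annotated as nonsense-mediated decay transcripts, a type marked for breakdown, and TPM4-232 as a retained intron. TPM3-219 held 21.5% of the TPM of TPM3 in 1g and 23.2% in sµg, so the gene and exon shares of TPM3 include such RNA.

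A separate test asked whether the mix of transcripts within a gene differed, apart from the level of the gene. It called 1.49% of all genes tested and 3 of the 41 members with more than 1 tested transcript, namely TPM2, TAGLN and EZR. TPM2 had the firmest call, with an edgeR adjusted p of 3.3e-04, and stayed under 0.05 in all 9 alternatives, the highest being 0.0213. Within TPM2, TPM2-201 rose from 66.2% ± 1.42 to 73% ± 1.19 of the gene's TPM and TPM2-202 fell from 18.4% ± 0.109 to 14.2% ± 0.699 (SD, n = 3), although 0 of its 9 tested transcripts passed the transcript-level edgeR test of use and 1 reached an unadjusted p under 0.05. TPM2-201 and TPM2-202 both encode 284 codons and differ in which of 2 neighbouring coding exons of 76 bases they include, a choice that TPM1 and TPM3 also make. TPM2-210 holds the same upstream exon as TPM2-202. The exons were compared after these values were seen. The TPM2 pair is shown because its balance differed between conditions, read on the minus strand of chromosome 9 (GRCh38), with capitals at the positions where the exons differ.
TPM2 upstream exon (in TPM2-202), chr9:35685064-35685139: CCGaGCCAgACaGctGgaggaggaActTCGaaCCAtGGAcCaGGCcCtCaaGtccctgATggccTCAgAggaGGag
TPM2 downstream exon (in TPM2-201), chr9:35684732-35684807: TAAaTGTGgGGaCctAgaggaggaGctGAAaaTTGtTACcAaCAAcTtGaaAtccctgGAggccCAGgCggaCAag

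The TPM2 exons were identical at 40 of 76 positions. The downstream exon was closer to its counterparts in the other genes, matching that of TPM1 at 59 positions and that of TPM3 at 60, than the upstream exon, at 52 and 49. Transcripts with the downstream exon made up 77.2%, 76.9% and 78.2% of the TPM2 transcripts with either exon in 1g and 84.2%, 84.6% and 84.4% in sµg. The conditions were clearly apart, at 77.4% ± 0.699 and 84.4% ± 0.226 (SD, n = 3, exact permutation p = 0.1). Leaving out single libraries kept the difference between 6.74 and 7.4 percentage points. In TPM1 the corresponding share was 30.5% ± 0.647 in 1g and 28.9% ± 1.93 in sµg, and in TPM3 54.2% ± 0.798 and 55% ± 0.345, with overlap and an exact permutation p of 0.3 in both. In TPM2, TPM was lower for the upstream form in sµg (33.1 to 35.8, against 41.8 to 45.2 in 1g) and higher for the downstream form (183 to 194, against 143 to 150). The upstream form was made of TPM2-202 (31 to 34.5 TPM in sµg, against 36.5 to 38.4 in 1g) and TPM2-210 (0.77 to 2.11, against 4.17 to 6.83). The tests of use for TPM1 and TPM4 gave adjusted p = 0.0903 and 1, but without sµg replicate 3 they gave 0.00213 and 0.0141, and with at least 10 counts in every library TPM1 gave 1.64e-05. One transcript of TPM1, TPM1-205, picked after its values were seen, passed the transcript-level test of use (edgeR adjusted p = 0.0104), at 2.3% ± 0.706 of the gene's TPM in 1g and 0.754% ± 0.319 in sµg (SD, n = 3).

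**Figure D3:**
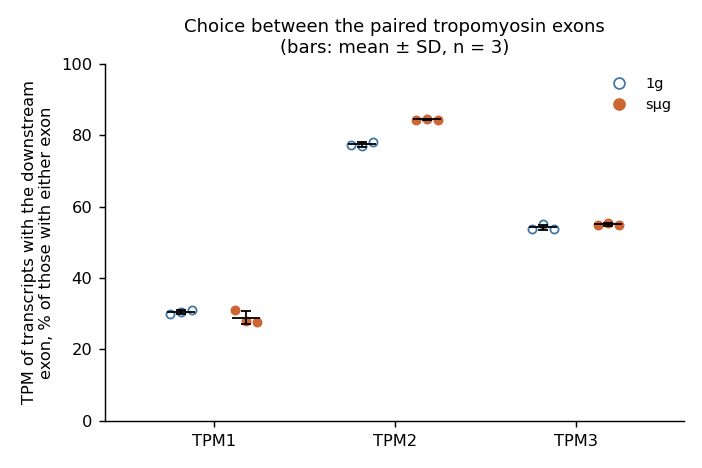
For TPM1, TPM2 and TPM3, the TPM of transcripts with the downstream exon of the pair is plotted in percent of those with either exon, by library (open circles 1g, filled circles sµg, bars mean ± SD, n = 3). TPM2 moves from 77.4% to 84.4% with no overlap, while the points of TPM1 and TPM3 overlap between conditions.

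Calponins, transgelins and caldesmon bind actin filaments, and calponins and caldesmon can dampen myosin activity. All 6 genes of the group were called, 4 lower and 2 higher, against 33.7% called over all genes tested. CNN2, the most abundant by TPM, had 525, 516 and 528 CPM in 1g and 440, 448 and 408 CPM in sµg, a clear separation (log2 fold change -0.28, SE 0.0392, edgeR adjusted p = 2.4e-05). CNN1, the smooth muscle calponin, was lower by a like amount at 27.3, 24.7 and 26.4 CPM in 1g and 21, 20.9 and 20.7 CPM in sµg (log2 fold change -0.33, SE 0.0615, adjusted p = 4.04e-04). TAGLN2 had a log2 fold change of -0.30 and CNN3 of -0.12, and the CNN3 call was lost without 1g replicate 2 (adjusted p = 0.0897) or sµg replicate 2 (0.0609). The effective length offset (0.0994) and limma on log2(TPM + 1) (0.301) also removed the CNN3 call. CALD1, caldesmon, was higher by 0.25. TAGLN was higher by 0.14 (adjusted p = 0.0132), a call lost without 1g replicate 1 (0.0739) or 1g replicate 2 (0.0652), and the gene overlaps PCSK7 on the opposite strand. The mix of TAGLN transcripts was called as well (adjusted p = 0.0143), with TAGLN-201 at 10.8% ± 1.47 of the gene in 1g and 5.86% ± 0.324 in sµg. Without 1g replicate 1 that adjusted p was 0.111, without sµg replicate 1 it was 0.083, and without sµg replicate 3 it was 0.0502. CNN1 is one of the smooth muscle markers counted above, and the part of other cell types in these differences was not tested.

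Among the cross-linkers, FLNC changed most. FLNC (ENSG00000128591.16, chr7:128830406-128859274, plus strand), filamin C, is the filamin of striated muscle and had 54.3, 52.8 and 51.8 CPM in 1g and 20, 22.4 and 20.3 CPM in sµg. The groups lay far apart, with a log2 fold change of -1.34 (SE 0.0558, edgeR adjusted p = 1.95e-12) that kept its call and direction in all 14 alternatives. Of 9 tested markers of striated muscle 5 were lower and 4 were not called, with sums given above, and their part in the FLNC result was not tested. FLNA, the ubiquitous filamin, was far more abundant at 375 ± 11.8 TPM in 1g and 370 ± 43.7 TPM in sµg. It had 1571, 1539 and 1576 CPM in 1g and 1542, 1533 and 1363 CPM in sµg, and was not called (log2 fold change -0.08, adjusted p = 0.189). The α-actinins ACTN1 and ACTN4, which bundle stress fibres, were lower by small amounts, with log2 fold changes of -0.19 and -0.09. The ACTN1 call was lost with limma on log2(TPM + 1), at an adjusted p of 0.0503. ACTN4 was at the threshold (edgeR adjusted p = 0.0486), and its call was lost in 12 of 14 alternatives, DESeq2 and RLE scaling among them. These losses include every fit that left out a library other than sµg replicate 3, at edgeR adjusted p between 0.0859 and 0.198.

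**Figure D4:**
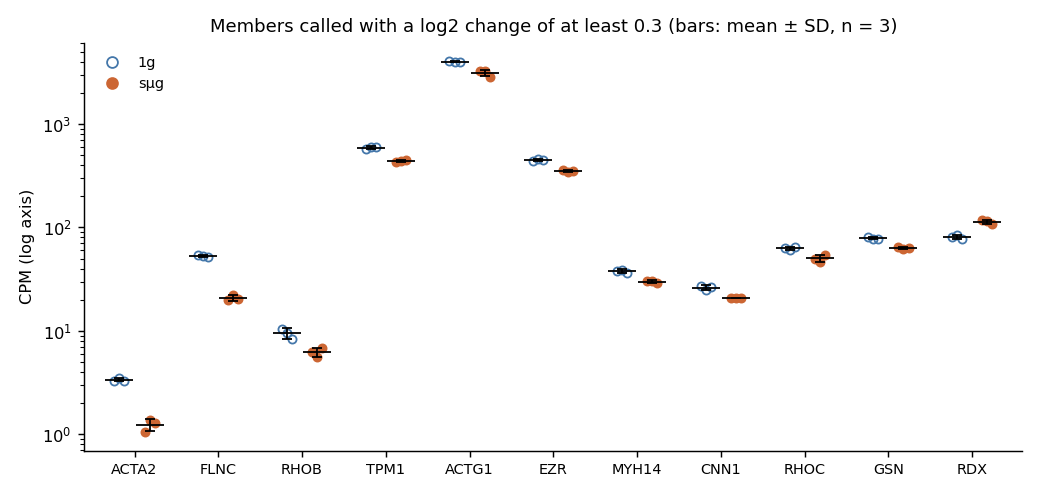
CPM on a log axis is plotted for the 11 members called with a log2 change of 0.3 or more in either direction, by library (open circles 1g, filled circles sµg, bars mean ± SD, n = 3). The conditions do not overlap for any of them, and RDX is the only one higher in sµg.

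Of 6 genes for proteins that cut, recycle and supply actin subunits, 2 were higher, 1 was lower and 3 were not called. Over all genes tested 15.5% were higher and 18.2% lower. Profilin PFN1, the most abundant of them, had 963, 931 and 957 CPM in 1g and 962, 998 and 1047 CPM in sµg, with overlap and no call (log2 fold change 0.08, edgeR adjusted p = 0.138). Cofilin CFL1 and destrin DSTN, which sever filaments, had log2 fold changes of 0.04 and -0.08 and were not called, though CFL1 was called without sµg replicate 3 (adjusted p = 0.0318). The second profilin and cofilin genes were both higher, PFN2 by 0.29 (adjusted p = 4.63e-06) and CFL2 by 0.23 (0.0111), and the CFL2 call was lost without 1g replicate 2 (0.0649) and with the effective length offset (0.405). GSN, gelsolin, severs and caps filaments and was the one lower, at 80.1, 77.5 and 76.9 CPM in 1g and 64.6, 61.6 and 63.8 CPM in sµg. Its groups were apart with a log2 fold change of -0.30 (SE 0.0421, adjusted p = 1.87e-05).

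The ERM proteins ezrin, radixin and moesin link cortical actin to the plasma membrane, and their genes moved in opposite directions. EZR (chr6:158765741-158819368, minus strand), the form of microvilli and epithelia, had 436, 454 and 444 CPM in 1g and 355, 345 and 351 CPM in sµg. RDX (chr11:109864295-110296712, minus strand) had 80.6, 83.9 and 77.4 CPM in 1g and 117, 116 and 107 CPM in sµg. Both separated the conditions, downward for EZR (log2 fold change -0.34, SE 0.035, edgeR adjusted p = 4.86e-07) and upward for RDX (0.49, SE 0.0449, adjusted p = 1.32e-07). MSN was higher by 0.26 (adjusted p = 3.17e-05). Summed TPM of the 3 genes was 317 to 336 in 1g and 318.8 to 330.5 in sµg, within which ezrin fell from 62.3% ± 0.728 to 49.9% ± 0.96, moesin rose from 26.7% ± 0.162 to 32.5% ± 1.32 and radixin from 11% ± 0.795 to 17.6% ± 1.76 (SD, n = 3). No library of one condition reached the range of the other for any of these shares (exact permutation p = 0.1 each). EZR and RDX kept their calls in all 14 alternatives. RDX overlaps ZC3H12C on the opposite strand. That gene was far scarcer, at a mean of 7.51 CPM in 1g and 9.33 CPM in sµg, and was also higher (log2 fold change 0.32, edgeR adjusted p = 0.018). The mix of EZR transcripts was called at an adjusted p of 0.0488, with EZR-201 at 20.2% of the gene in 1g and 16.3% in sµg beside EZR-202, both encoding 586 codons. That call was lost in 5 of the 6 fits without 1 library, all but the one without sµg replicate 2 (0.0282), the adjusted p being 0.102 without 1g replicate 1, 0.174 without 1g replicate 2, 0.169 without 1g replicate 3, 0.191 without sµg replicate 1 and 0.13 without sµg replicate 3.

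The small GTPases RHOA, RHOB and RHOC switch this system on. RHOA, which activates ROCK and the formins, held 81.3% of the TPM of RHOA, RHOB and RHOC in 1g and 83.3% in sµg. It had 470, 473 and 468 CPM in 1g and 453, 443 and 398 CPM in sµg, lower without overlap but by little (log2 fold change -0.12, SE 0.0434, edgeR adjusted p = 0.0346). Leaving out any 1 of 4 libraries ended that call, with adjusted p of 0.102 without 1g replicate 1, 0.117 without 1g replicate 2, 0.102 without 1g replicate 3 and 0.0515 without sµg replicate 2. RHOB, an immediate early gene whose protein is found on endosomes, was scarce at 10.5, 9.55 and 8.37 CPM in 1g and 6.25, 5.61 and 6.9 CPM in sµg, and its groups were apart (log2 fold change -0.61, SE 0.114, adjusted p = 4.26e-04). RHOC had 63.9, 60 and 64.3 CPM in 1g and 49.1, 46.7 and 54.5 CPM in sµg, also apart (-0.33, SE 0.0544, adjusted p = 1.44e-04).

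Of the 4 kinases downstream of the GTPases, ROCK1, ROCK2 and LIMK2 were higher and LIMK1 was not called. ROCK1, which phosphorylates myosin light chains and LIM kinases, had 73.1, 75.9 and 76 CPM in 1g and 92.7, 93.3 and 81.5 CPM in sµg. ROCK2, its close relative, had 35, 37.4 and 35.7 CPM in 1g and 43.7, 43.9 and 39.3 CPM in sµg. In both genes sµg replicate 3 was the lowest sµg library and still lay above all 1g libraries. Their log2 fold changes were 0.25 (SE 0.0497, edgeR adjusted p = 7.46e-04) and 0.23 (SE 0.0553, adjusted p = 0.003), and limma on log2(TPM + 1) gave adjusted p of 0.0687 and 0.2. The ROCK2 call was also lost with the effective length offset (log2 fold change 0.16, adjusted p = 0.157). LIM kinases inactivate cofilin, and LIMK2 was higher by 0.26 (adjusted p = 2.73e-04) while LIMK1, at 111, 112 and 111 CPM in 1g and 111, 111 and 95.1 CPM in sµg, was not called (-0.07, and 0.01 without sµg replicate 3). The formins DIAPH1 and DIAPH3, which RhoA opens to nucleate straight filaments, were not called. DIAPH1, close to LIMK1 in TPM, had 162, 169 and 161 CPM in 1g and 173, 176 and 157 CPM in sµg, and it was called as higher without sµg replicate 3 (log2 fold change 0.10, adjusted p = 0.00991).

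SRF itself, the most abundant by TPM of its group at 33.8 ± 0.784 in 1g, had 104, 108 and 104 CPM in 1g and 102, 96.7 and 97.5 CPM in sµg, just without overlap and not called (log2 fold change -0.09, SE 0.0394, edgeR adjusted p = 0.0778). MRTFA had 29.5, 28.6 and 27.1 CPM in 1g and 25.1, 29.9 and 25 CPM in sµg, with overlap and no call (-0.09, adjusted p = 0.327), and without sµg replicate 2 it was called lower (-0.18, adjusted p = 0.0494). It overlaps SGSM3 on the opposite strand, which was itself lower (-0.32). MRTFB had 27.4, 28 and 28 CPM in 1g and 33.5, 33 and 31.7 CPM in sµg, higher without overlap (0.24, SE 0.0533, adjusted p = 0.002), a call that the effective length offset removed (0.07, adjusted p = 0.724). RNA levels do not report where the MRTF proteins are in the cell.

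The CArG box was searched as CC, then 6 bases that are each A or T, then GG, a pattern that reads the same on both strands, in RefSeq promoters from 250 bases before to 50 after the start site. Of the 42 members with an entry, 8 (19%) had a box, against 1.6% of the 27305 genes in the promoter table, and 4 members, ACTB, MYL9, PFN2 and TAGLN, had no entry. A gene counted if any of its promoters had a box, and members had more promoters per gene. By promoter the shares were 9.76% of the 82 of the members and 1.29% of all 35116. The boxes of the 8 members are shown with 10 bases on each side, because their spacing and core letters are what the search found, with the box in capitals and the distance in bases from the first base of the box to the start site.
ROCK2, chr2:11345501-11345510, minus strand, 73 bases before the start: aaatgtacttCCTTAAATGGgtttactggg
SRF, chr6:43171239-43171248, plus strand, 30 bases before the start: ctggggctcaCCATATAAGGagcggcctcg
SRF, chr6:43171259-43171268, plus strand, 10 bases before the start: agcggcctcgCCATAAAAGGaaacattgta
ACTN1, chr14:68977728-68977737, minus strand, 171 bases before the start: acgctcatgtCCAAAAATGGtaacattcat
ACTC1, chr15:34795649-34795658, minus strand, 109 bases before the start: gcgaaggggaCCAAATAAGGcaaggtggca
ACTG1, chr17:81512884-81512893, minus strand, 94 bases before the start: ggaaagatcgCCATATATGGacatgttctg
CNN2, chr19:1026519-1026528, plus strand, 89 bases before the start: cgcctccaggCCTTATAAGGacatttgcgc
TPM4, chr19:16067365-16067374, plus strand, 173 bases before the start: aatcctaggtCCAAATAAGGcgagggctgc
FLNA, chrX:154374719-154374728, minus strand, 94 bases before the start: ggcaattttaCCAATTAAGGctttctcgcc
Of these 8 genes, ACTG1, CNN2 and ACTN1 were lower in sµg, ROCK2 was higher, and ACTC1, FLNA, SRF and TPM4 were not called. These are results for whole genes, whereas a box belongs to 1 start site. The TPM4 box precedes the start of TPM4-221, which had at most 0.34 TPM in any library. TPM4-218, with 48.3% of the gene's TPM in 1g, starts downstream at chr19:16076495. The start sites in use were not examined for the other genes. FLNC, ACTA2 and RHOB, the members with the largest falls, had no box in this window, which says only that these letters are not there.

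The wider pathway was read from 6 lists of 160 further genes, written from textbook knowledge but chosen with earlier results of these data known. The shares below are therefore not those of lists chosen blind. Of the 160 genes 156 were tested, with 25 higher (16%, against 15.5% of all genes tested) and 54 lower (34.6%, against 18.2%). When sµg replicate 3 was left out, 39 were higher. One list holds known targets of SRF and MRTF that are not members. Of its 36 genes, all tested, 20 were lower by edgeR (55.6%) and 2 higher (5.56%), and their median log2 fold change was -0.22, against 0.01 over all genes. The 4 with the smallest adjusted p were CCN2, CCN1, PDLIM1 and AMOTL2. CCN2, a secreted matricellular protein, had 139, 137 and 139 CPM in 1g and 65.8, 62.4 and 60.6 CPM in sµg (log2 fold change -1.14, SE 0.0412, adjusted p = 3.06e-13). PDLIM1, a stress fibre adaptor, had a log2 fold change of -0.83, CCN1, a matricellular relative of CCN2, of -0.82, and AMOTL2, an actin-linked junction protein, of -0.82. The conditions were far apart in all 4 genes. CCN1, CCN2, ANKRD1 and AMOTL2 are also well-known targets of YAP and TAZ, and FOS and EGR1 also respond to ERK through other partners of SRF, so the list is not specific to MRTF. In contrast VCL, vinculin, with a log2 fold change of -0.01, and ITGB1, with 0.03, were not called; they were picked after their values were seen. The higher genes were ACTG2 and TGIF1.

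**Figure D5:**
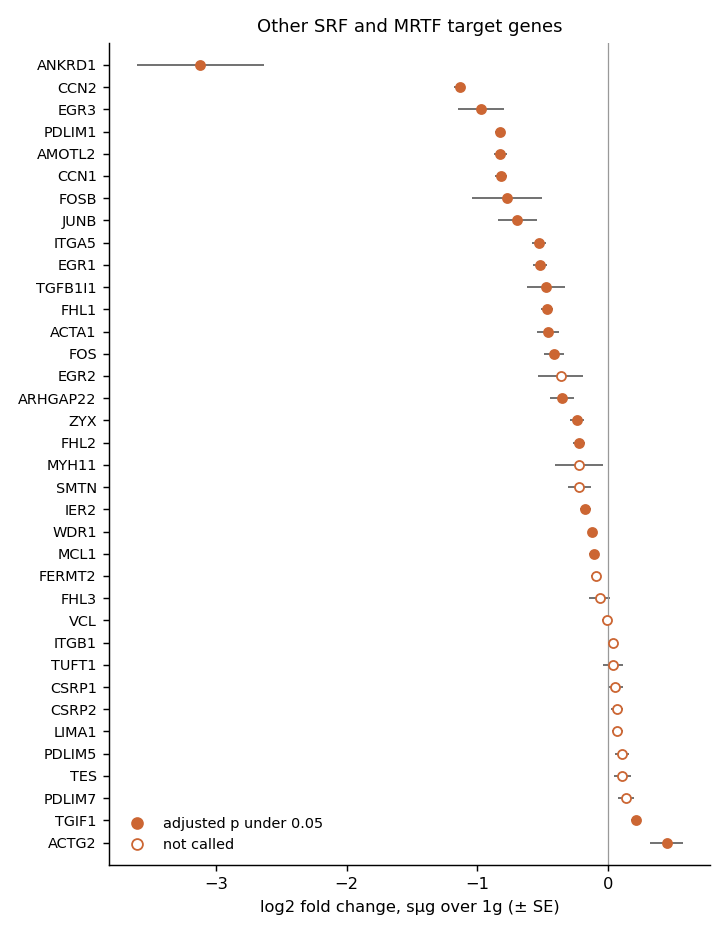
The log2 fold change of sµg over 1g is plotted with its SE for the 36 other SRF and MRTF target genes, filled where the edgeR adjusted p was under 0.05. The 20 filled points to the left of 0 face 2 to the right, and CCN2 lies at -1.14.

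The remaining lists were mixed, and their shares are read against the same 15.5% higher and 18.2% lower over all genes tested. Of 25 genes of the Arp2/3 complex and other nucleators, 4 were higher (16%) and 6 lower (24%), led by COBL (log2 fold change -0.41), FHOD1 (0.31), WASF3 (-0.31) and FHOD3 (-0.39). Of 25 capping, turnover and monomer binding genes, 4 were higher (16%) and 7 lower (28%), led by the capping protein CAPG (-0.58), the cofilin phosphatase SSH3 (-0.57), CAPZA2 (0.21) and CORO1A (0.36). Cross-linkers and cortex proteins gave 4 higher (20%) and 6 lower (30%) of 20, among them the plastin PLS3 (-0.31), NHERF1 (-0.22), an adaptor of ezrin, and MARCKSL1 (0.18). Among 35 tested regulators of these GTPases and of myosin phosphorylation 8 were higher and 8 lower (22.9% each). The 4 with the smallest adjusted p were all lower, namely the RhoA-inactivating ARHGAP29 (-1.70), RHOBTB3 (-0.85) and the atypical GTPases RND1 (-0.50) and RND2 (-0.26). ARHGAP29 had 14.7, 15.6 and 13.2 CPM in 1g and 4.57, 4.27 and 4.52 CPM in sµg, with an SE of 0.102 and an edgeR adjusted p of 3.63e-10. Of 18 tested unconventional myosins, which carry cargo and shape membrane protrusions, 3 were higher (16.7%) and 8 lower (44.4%), led by MYO10 (-0.40), MYO6 (-0.67), MYO1C (-0.41) and MYO1E (-0.34). The genes named from the 6 lists for their smallest adjusted p kept their call and direction in every alternative, except RHOBTB3, COBL, WASF3, NHERF1 and FHOD3. ACTG2 and TGIF1 were not followed singly in this way.

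Markers of other cell types are read against the same 18.2% lower and 15.5% higher over all genes tested. The trophectoderm and amnion list departed most from these shares, and the other lists were small and moved in both directions. Of 14 trophectoderm and amnion markers 11 were tested, and 10 of these were lower in sµg (90.9%). The median log2 fold change of the 11 was -2.17. The whole list summed to 555 to 564 TPM in 1g and 461 to 500 TPM in sµg. Among the defining genes of that list GATA3 had 9.54 to 10.8 CPM in 1g and 0.292 to 0.481 CPM in sµg. TFAP2B, ITGB6 and WNT6 averaged under 10 counts per library over all libraries. Of 10 tested fibroblast and mesenchyme markers 4 were lower (40%) and 3 higher (30%), with sums of 432 to 452 TPM in 1g and 420 to 456 TPM in sµg. COL3A1, DCN, LUM and TWIST1 averaged under 10 counts per library over all libraries. Of 8 tested neural markers 4 were lower (50%) and 2 higher (25%), with sums of 205 to 209 TPM in 1g and 200 to 222 in sµg. Of 7 tested endothelial and blood markers 1 was lower (14.3%) and 3 higher (42.9%), with sums of 38.6 to 40.9 TPM in 1g and 47.1 to 50.9 in sµg. The part of such cells in the differences of the members and of the wider lists was not tested.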

How the data were processed

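Stranded mRNA libraries, labelled as H1 and H9 cells, were sequenced in read pairs, 3 from each condition. Per the paper's methods and the submitters' processing notes, the authors used STAR 2.7.7a for alignment against GRCh38.p13 and RSEM 1.3.3 for quantification. The deposited tables hold, for each gene and transcript, RSEM's expected count (an estimated number of read pairs, not normalized between libraries), TPM (that estimate per effective length, scaled to a constant sum by the authors) and effective length. Which of 2 alignment filters gave the deposited values is not stated, nor is a strand setting. No other columns of samples were present.

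Expected counts, 19971097 to 28506848 per library, were rounded and fitted over the whole table with edgeR 4.0.16 in R 4.3.3 (quasi-likelihood test, robust, filterByExpr with a minimum count of 10 and total of 15, TMM scaling, condition only), with Benjamini-Hochberg adjustment over all genes tested and a threshold of 0.05. CPM values use TMM-scaled library sizes. Transcripts were tested likewise, and transcript use with diffSpliceDGE. Shares within families were computed from TPM and compared by two-sided exact permutation tests, whose smallest p here is 0.1. Scripts were tested on simulated data. The alternatives were DESeq2 1.42.0, RLE scaling, other count filters, an effective length offset, limma 3.58.1 on log2(TPM + 1) and log2(TPM + 0.1), a replicate block, single libraries left out and a threshold of 0.01.

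The members and lists were chosen with earlier results of these data known. Values in every library are given for members called with a log2 change of 0.3 or more in either direction, for the most abundant member of each role by TPM, and for SRF, MRTFA, MRTFB, RHOA, ROCK1 and ROCK2. From each wider list up to 4 genes with the smallest adjusted p are named with their log2 fold change (1 such gene is not reported here), and CCN2 and ARHGAP29 also with their libraries. Tropomyosin transcripts with at least 5% of their gene's TPM are named. Gene positions were taken from GENCODE 44 (60419 of the 60719 genes matched), promoters from RefSeq and exon sequences from the hg38 genome.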

Additional observations from a re-analysis of the deposited data

How the results depend on the processing

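Of the 30 called members, 18 kept their call and direction in all 14 alternatives and none reversed. Members lower in sµg numbered 17, but 11 with limma on log2(TPM + 1) and 14 to 17 without 1 library. MYL9 (log2 fold change -0.134 to 0.00281 without 1 library, the highest without sµg replicate 3), MYH10 (-0.0538 to 0.0509 likewise, 0.00582 with the effective length offset, 0.0398 and 0.04 with limma on log2(TPM + 1) and log2(TPM + 0.1)) and LIMK1 (-0.106 to 0.00676 without 1 library, the highest without sµg replicate 3), none of them called, changed sign. Of the wider genes, 25 were higher, against 13 with the offset, 15 with limma under either pseudocount, 16 at an adjusted p under 0.01 and 18 to 39 without 1 library, the 39 being without sµg replicate 3. The 54 lower became 24 with limma under either pseudocount and 43 to 55 without 1 library. For SRF and MRTF targets, 2 higher became 1 with DESeq2 and at an adjusted p under 0.01 and 1 to 3 without 1 library, and 20 lower became 12 with limma under either pseudocount and 17 to 20 without 1 library. Tropomyosin transcripts called higher were 0 with the settings of the report and without any 1 library, 1 with RLE scaling, 2 with at least 10 counts in every library, 4 with DESeq2 and 1 with limma. Those called lower were 2, against 5 with that count filter, 6 with DESeq2, 1 with limma and 0 or 1 without 1 library. Same-numbered libraries of the 2 conditions deviated together little (correlations -0.02, 0.04 and -0.01), which did not show pairing; the study's methods call the controls matched without saying how. With the replicate number as a block, 13 members were higher and 16 lower, tropomyosin transcripts called lower fell to 0, and members with transcript use called fell from 3 to 1, against 1 to 4 without 1 library. The causes were not tested. A missing call for a transcript does not show equal use.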
